A study of Homo sapiens with 6 samples.

Results

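Box C/D small nucleolar RNAs (snoRNAs) come from genes whose symbols begin with SNORD. All 362 such genes on the nuclear chromosomes of the RefSeq GRCh38 table were taken, of 59661 gene symbols in all. A gene was counted in a list when the summit of a peak, its highest point, lay inside it. By this rule 34 of the 362 genes (9.39%) had a summit in at least 1 list, against 49.5% of all genes, most of them far longer. Of the 34, 12 had one in at least 2 lists, and SNORD9 and SNORD104 in all 3. The lists come from RNA immunoprecipitation sequencing (RIP-seq), which sequences the RNA recovered with a protein, in HEK293T, an established human embryonic kidney line that carries the SV40 large T antigen. Series labels name 3 RIP samples overexpressing SNRPD2 (genotype SNRPD2OE) and 3 control RIP samples (genotype Ctrl). SNRPD2 encodes SmD2, a subunit of the Sm ring of spliceosomal RNAs, and the study asked how SmD2 relates to pseudouridine and splicing. Only the SNRPD2OE lists were analysed here, so nothing below compares overexpression with control. The sources used here do not give the promoter behind the overexpression or the antibody, nor say whether replicates were separate cultures, so the spread between replicates may be technical. Peak lists hold no expression levels, so the identity of the line was not checked against marker genes.

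Box C/D snoRNAs are short RNAs that carry the conserved boxes C and D near their ends, bind the proteins fibrillarin, NOP56, NOP58 and SNU13, and guide 2′-O-methylation of other RNAs by base pairing. Most human members are cut out of introns of host genes, many of which encode ribosomal proteins or are long noncoding RNAs named for their snoRNAs. Most guide methylation of ribosomal RNA, a few guide methylation of the U6 spliceosomal RNA, and U3, U8, U13 and U22 take part in the processing or acetylation of ribosomal RNA. They are not known to carry the Sm ring.

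The sequences of 2 members that stand at the edge of the summit rule are given, SNORD121B in part and SNORD58B whole. SNORD121B was counted in replicate 2, with its summit 7 bases from the low-coordinate end of the gene. SNORD58B, which lies within RPL17, was counted in no list, with summits 3 bases outside it in replicate 1 and 11 bases outside it in replicate 2. Both are read 5′ to 3′ from RefSeq (GRCh38.p14). SNORD121B is shown for 61 of its 79 bases, chr9:33934315-33934375, on the minus strand, which is that of UBAP2. The remaining bases, at the 3′ end of the gene, are not shown, and the summit, at 33934304, lies among them. SNORD58B is shown whole, 66 bases, chr18:49491664-49491729, on the minus strand, which is that of the read-through gene RPL17-C18orf32. Capitals mark TGATG, the core of box C, and CTGA, the letters of box D and of its internal copy. In SNORD121B the marked CTGA begins at base 38 of 79, away from the 3′ end. A box D near that end would lie outside the stretch shown.
SNORD121B: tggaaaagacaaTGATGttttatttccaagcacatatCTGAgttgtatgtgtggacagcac
SNORD58B: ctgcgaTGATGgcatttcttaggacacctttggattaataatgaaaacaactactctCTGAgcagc
Each motif was found 1 time on the printed strand and 0 times on the other strand in both stretches, and the motifs do not overlap there. TGATG stands in 4.02% of the 35116 RefSeq promoter windows cut to their last 61 bases (7.69% with both strands searched) and in 4.27% cut to 66 bases (8.21%). CTGA stands in 25.9% (45.4%) and 27.5% (47.5%) of them. These matches are descriptions of the letters only.

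The 3 lists differ in depth and shape, and each value below is given by replicate for that reason. On the nuclear chromosomes they held 30111, 160931 and 65097 peaks in replicates 1, 2 and 3, and the median number of reads at a summit was 4, 1 and 1. The list of replicate 3 stands apart in shape, since 75.7% of its peaks spanned more than 1000 bp, whereas 2 peaks of replicate 1 and 0 of replicate 2 did. The read number at each summit was worked out from the deposited fold and p, and the highest number that could be recovered without ambiguity was 78, 80 and 78. The smallest peak widths of the lists were 39, 40 and 39 bp. Whether read numbers have an upper limit near those highest values was not tested. The deposited fold is the scaled pileup plus 1 over the caller's background plus 1, so it is not a plain ratio, and folds of different lists are set side by side without a test. The caller's background was worked out from the same fold and read number, and is given below in reads of the same list. At a given read number in a list, a higher fold therefore goes with a lower background by construction.

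SNORD genes with a summit were few, and most of their peaks were among the stronger ones of each list. Summits lay in 7, 19 and 22 SNORD genes in replicates 1, 2 and 3, which is 1.93%, 5.25% and 6.08% of 362 genes (mean 4.42% ± 2.19, SD, n = 3 replicates). Without the peaks wider than 1000 bp the third share was 5.80%. Of all genes, most of them far longer, 19.1%, 43.1% and 34.8% had a summit, and of the 8386 genes of at most 300 bp, 2.41%, 5.01% and 5.09% did. The share of SNORD genes was thus below that of all genes and near that of short genes, which by itself is no result about snoRNAs. The short genes include the SNORD genes themselves. In all 3 lists the count was 2 of 362 (0.552%), against 15.1% of all genes and 0.477% of genes of at most 300 bp. In at least 2 lists it was 12 (3.31%), against 32.3% and 2.65%.

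Every SNORD gene that was counted held exactly 1 summit in a list, 48 summits in all. The reads at these summits had a median of 23 (range 14 to 58) in replicate 1, 35 (3 to 80) in replicate 2 and 29 (7 to 71) in replicate 3. Summits with at least 10 reads lay in 7, 17 and 21 SNORD genes (1.93%, 4.70% and 5.80%), against 5.69%, 6.52% and 5.97% of all genes. A −log10 q of at least 3 was reached in 1, 5 and 9 SNORD genes (0.276%, 1.38% and 2.49%), against 0.759%, 2.26% and 0.890% of all genes. By −log10 p, the median SNORD summit stood at the 93.3rd, 97.5th and 98.9th percentile of its list. The lowest, SNORD48, SNORD134 and SNORD17, stood at percentiles 45.2, 13.8 and 0.228. In replicates 2 and 3, 71.4% and 55.0% of all peaks had 1 read. Such ranks are not particular to SNORD genes by reads: median reads were 16, 39 and 34 at box H/ACA snoRNA genes (SNORA) and 28.5, 45 and 35.5 at Cajal body guide RNA genes (SCARNA). The −log10 q was 0 for 3, 3 and 6 of the SNORD summits, so a part of them is weak.

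**Figure D1:**
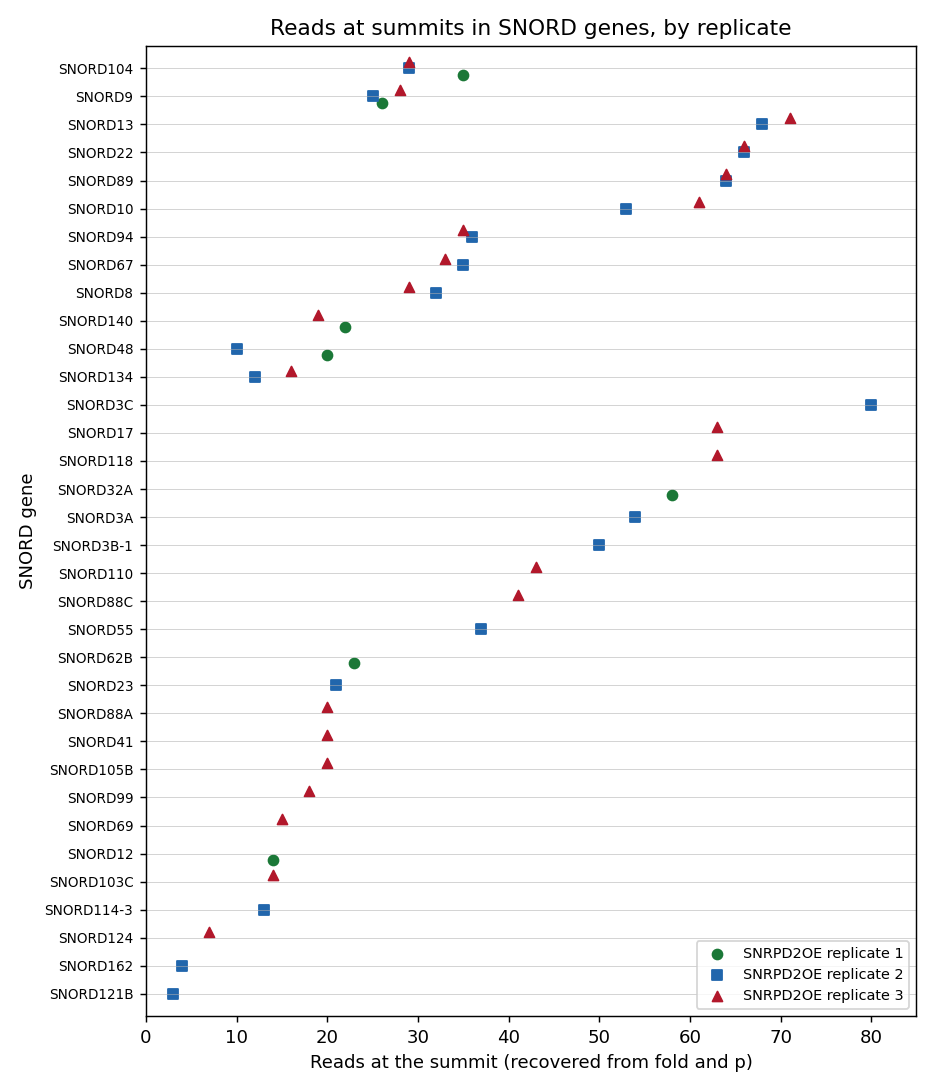
Reads at the summit (x axis, recovered whole reads) for each of the 34 SNORD genes with a summit (y axis), with 1 symbol per SNRPD2OE replicate. SNORD9 and SNORD104 have 3 symbols, 10 genes have 2, and the remaining 22 have 1. SNORD3C reaches 80 reads in replicate 2.

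SNORD104, which guides methylation of 28S ribosomal RNA, lies on chromosome 17 from 64146078 to 64146157 and had 35, 29 and 29 reads in replicates 1, 2 and 3 (31.0 ± 3.46, SD, n = 3). Its folds were 3.14, 2.74 and 6.01, and its summits lay within 4 bases of each other. It sits in SNHG25, a long noncoding host gene of 340 bp, and in each list its summit was the only one in that host. SNORD9 lies in CHD8, the gene of a chromatin remodeller, on chromosome 14 from 21392151 to 21392253. It had 26, 25 and 28 reads (26.3 ± 1.53, SD, n = 3), folds of 4.15, 2.85 and 7.25, and summits within 3 bases of each other. In both genes the reads were alike in the 3 lists, while the folds of replicate 3 were the highest.

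The 10 genes with a summit in both replicates 2 and 3 had nearly the same reads in both lists but different folds. Their backgrounds differed too, but these were worked out from the folds and reads. SNORD9 and SNORD104 are among the 10 genes. SNORD13, the U13 snoRNA, which helps acetylate 18S ribosomal RNA and stands outside any host gene, had 68 and 71 reads, and its fold was 2.24 in replicate 2 and 17.6 in replicate 3. SNORD89, in the ubiquitin ligase gene RNF149, had 64 reads in both lists and folds of 3.26 and 15.99. SNORD22, the U22 snoRNA in SNHG1, had 66 reads in both and folds of 1.68 and 5.91. These 3 genes had the most reads of the 10, and replicate 1 had no summit in any of them. Their reads lie towards the highest numbers of the 2 lists, 80 and 78. Alike reads there do not measure equal amounts of RNA.

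SNORD10, in the translation factor gene EIF4A1, had 53 and 61 reads and folds of 1.99 and 1.89. Of the 10 genes it alone did not have the higher fold in replicate 3. SNORD94, in PTCD3, had 36 and 35 reads with folds of 1.57 and 8.21, and SNORD67, in the microtubule gene CKAP5, had 35 and 33 reads with folds of 3.59 and 4.84. SNORD8, in CHD8 beside SNORD9, had 32 and 29 reads with folds of 2.59 and 6.82. SNORD134, in the fatty acid synthase gene FASN, had 12 and 16 reads with folds of 2.03 and 3.58. Over the 10 genes the reads differed by 0 to 8 between the lists (median 2.5). The background was higher in replicate 2 in 9 of them, and the median ratio of replicate 2 to replicate 3 over all 10 was 9.81.

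**Figure D2:**
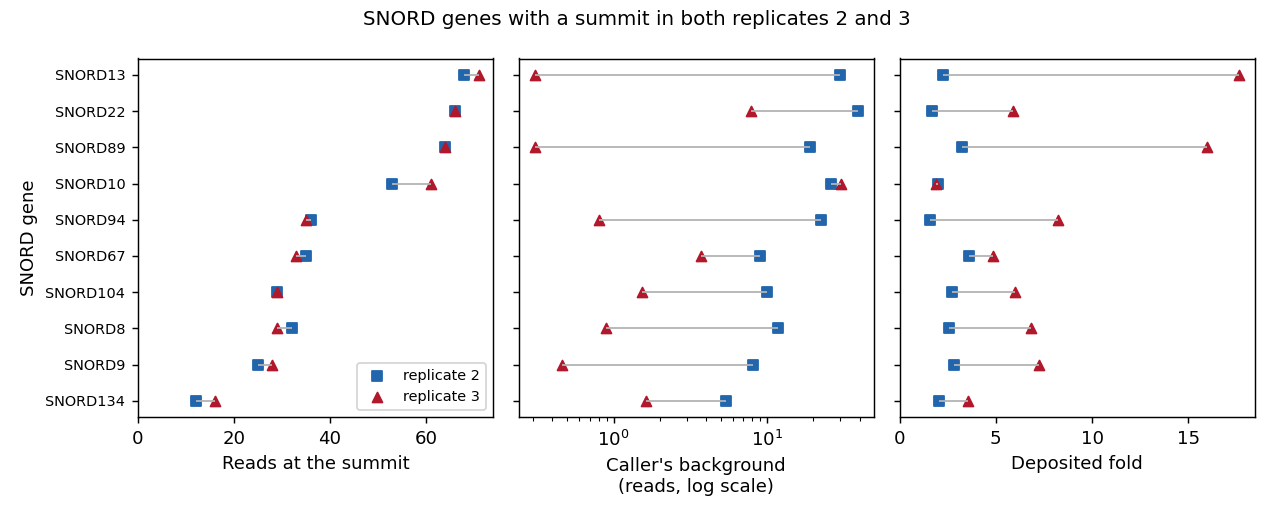
The 10 SNORD genes with a summit in both replicate 2 (squares) and replicate 3 (triangles): reads at the summit (left), the caller's background in reads on a log scale (middle) and the deposited fold (right), joined by a line for each gene. Reads differ by at most 8, while SNORD13 falls from a background of 29.8 to 0.307 reads and its fold goes from 2.24 to 17.6.

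Genes shared with replicate 1 were SNORD140 and SNORD48 beside the pair found in every list. SNORD140, on chromosome 22 from 41073602 to 41073721 with no host gene by the rule used, had 22 reads in replicate 1 and 19 in replicate 3. Its folds were 7.09 and 5.77, the former the highest of any SNORD gene in replicate 1, but its peak in replicate 3 was 19198 bp wide. SNORD48, in the long noncoding gene SNHG32, had 20 reads in replicate 1 and 10 in replicate 2, with folds of 2.60 and 3.97. Replicates 1 and 2 shared 3 genes (42.9% of the first list's genes and 15.8% of the second's), replicates 1 and 3 shared 3 (42.9% and 13.6%), and replicates 2 and 3 shared 10 (52.6% and 45.5%).

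Summits of a gene fell at nearly the same base in different lists. Over the 16 pairs of lists that share a gene, the median distance between the summits was 3 bases, and 12 pairs lay within 4 bases. SNORD8 had its summit at the same base in replicates 2 and 3. The exceptions were SNORD94, with summits 52 bases apart, SNORD22, with 22, SNORD134, with 9, and SNORD140, with 8. Over the same 16 pairs the reads differed by a median of 3 and at most 10.

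Among the genes in 1 list, 3 were in replicate 1. SNORD32A, in the ribosomal protein gene RPL13A, had 58 reads over a background of 31.7 and a fold of 1.79. SNORD62B, in PRRC2B, had 23 reads and a fold of 4.93, and SNORD12, in ZFAS1, had 14 reads and a fold of 3.13. The first therefore had many reads but little above its background.

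In replicate 2 alone, 8 genes had a summit, and the U3 genes led them. U3, the snoRNA that directs early cleavage of the 18S precursor, had 80 reads at SNORD3C, 54 at SNORD3A and 50 at SNORD3B-1, with folds of 1.99, 2.17 and 2.81. The number at SNORD3C equals the highest of its list, and whether reads could go higher there was not tested. Copies of U3 are near-identical and share reads, so the value at a single copy is uncertain. SNORD55 had 37 reads and a fold of 2.09, and SNORD23, in NOP53, had 21 and a fold of 3.01. SNORD114-3, in MEG8, had 13 reads with its summit on the first base of the gene, and in replicate 3 the summit of an overlapping peak lay 15 bases outside it. SNORD162, in STX18-AS1, and SNORD121B, in UBAP2, rested on 4 and 3 reads, and their folds of 4.66 and 3.61 came over backgrounds of 0.0722 and 0.108 reads.

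In replicate 3 alone, 11 genes had a summit. SNORD118, the U8 snoRNA, which is needed to mature 5.8S and 28S ribosomal RNA, lies within TMEM107 on chromosome 17 from 8173452 to 8173588 and had 63 reads and a fold of 12.6. By −log10 p, SNORD13, SNORD89 and SNORD118 stood at ranks 3, 8 and 26 of the whole list, whereas in replicate 2 SNORD89 alone was among the first 100, at rank 54. SNORD88C and SNORD88A, neighbours in the transcribed pseudogene C19orf48P, had 41 and 20 reads with folds of 6.68 and 3.58. They are related copies, and reads may be split between them. SNORD110, in the gene of the box C/D core protein NOP56, had 43 reads and a fold of 3.97. SNORD17, in SNX5, had 63 reads over a background of 31.5 and a fold of 1.89, the lowest of that list's SNORD genes together with SNORD10.

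The remaining 6 members found in replicate 3 alone had 7 to 20 reads. SNORD41, in TNPO2, and SNORD105B, in PPAN, had 20 reads each with folds of 5.08 and 4.92, and for both a second solution of 46 and 36 reads could not be told from it. SNORD99, in SNHG12, had 18 reads with a fold of 4.86. SNORD69, in the nucleolar GTPase gene GNL3, had 15 with 3.56, and SNORD103C had 14 with 4.38. SNORD124, in the Mediator gene MED24, had 7 with 2.48.

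Backgrounds at the SNORD summits ran far apart between lists. The median background was 5.004 reads (range 1.67 to 31.7) in replicate 1, 11.7 reads (0.0722 to 39.7) in replicate 2 and 1.15 reads (0.0316 to 31.5) in replicate 3. Among peaks with at least 10 reads, SNORD summits had a median background of 17.2 reads in replicate 2, against 5.42 in the list as a whole, and 1.38 in replicate 3, against 0.922. Their median reads in those lists were 36 and 29, against 15 and 15. Median folds of the SNORD summits were 3.14, 2.59 and 5.002, in the reverse order of the backgrounds. The backgrounds were worked out from the folds and reads, so this order is not a separate observation. The sources used here do not name the library behind the background, and its part in the folds was not tested.

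**Figure D3:**
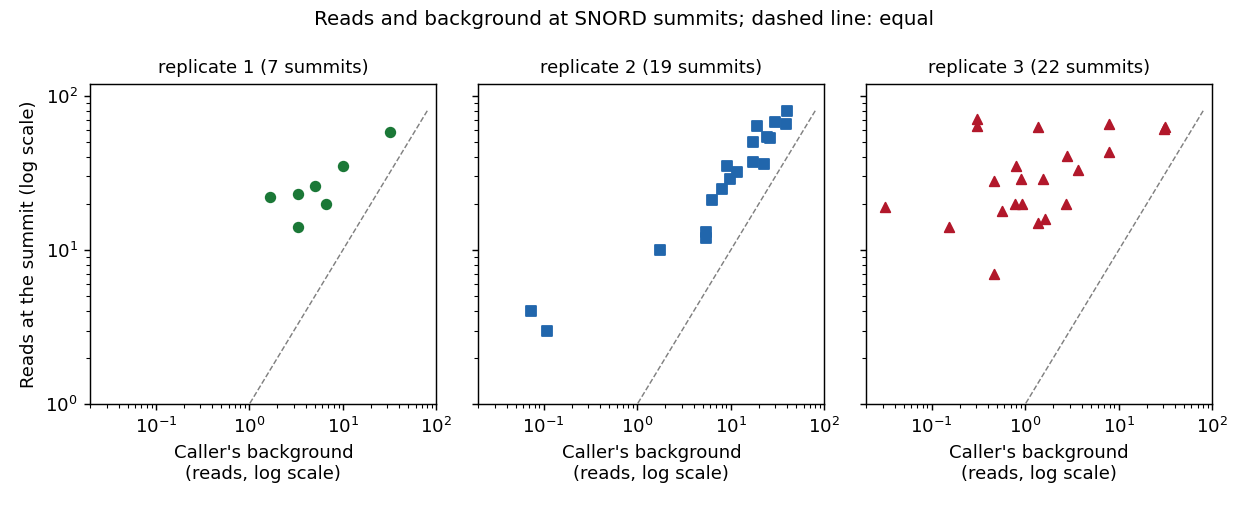
Reads at each SNORD summit (y axis, log scale) against the caller's background in reads of the same list (x axis, log scale), 1 panel per replicate, with the line of equal values dashed. In replicate 2 reads and background run together up to 80 over 39.7 reads, while in replicate 3 SNORD13 and SNORD89 have 71 and 64 reads over 0.307.

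Summits lay in the middle of the genes. Counted from the low-coordinate end, 45 of 48 summits (93.8%) lay between 0.25 and 0.75 of the gene's length, with medians of 0.556, 0.460 and 0.507 in replicates 1, 2 and 3. The 3 outside it were SNORD114-3, SNORD121B and SNORD3B-1, all in replicate 2. For the 31 summits whose host gene's strand is known, and on the assumption that the snoRNA is read on that strand, the median place from the 5′ end was 0.531, 0.492 and 0.545 (mean 0.523 ± 0.0276, SD, n = 3). Peaks were short, with a median width of 64, 51 and 68 bp and a median of 54.4%, 45.6% and 61.6% of the gene covered. In 4, 12 and 19 genes the whole peak lay inside the gene. The smallest peak width of a list was 39, 40 and 39 bp, close to the median distance of 36, 46 and 43 bases from a summit to the nearer end of the gene.

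**Figure D4:**
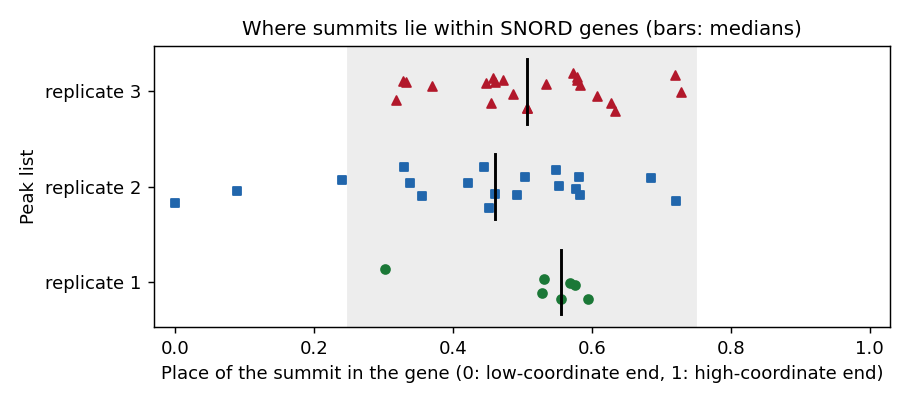
Place of each of the 48 summits within its SNORD gene, from 0 at the low-coordinate end to 1 at the other end (x axis), by peak list (y axis), with the median as a bar; points are spread vertically for legibility only. The shaded middle from 0.25 to 0.75 holds all 7, 16 of 19 and all 22 summits.

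Peaks that overlapped a SNORD gene with the summit outside it added 4, 7 and 129 genes. All but 2 of those in replicate 3 came from peaks wider than 1000 bp. Nearest to the edge were SNORD58B in replicates 1 and 2, with 24 and 26 reads, and SNORD114-3 in replicate 3, with 17 reads. SNORD132, in the mitotic checkpoint gene BUB1, had summits 18 and 19 bases outside it in replicates 1 and 3, with 20 and 11 reads. Just inside the edge were SNORD114-3 and SNORD121B in replicate 2, 0 and 7 bases from it, and SNORD41 in replicate 3, 23 bases from it.

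Guides of the U6 spliceosomal RNA recurred among the members, a grouping made after their values were seen. RefSeq synonyms with mgU6 in them belong to 4 members, namely SNORD7, SNORD8, SNORD9 and SNORD10. SNORD67 and SNORD94 are also known to guide methylation of U6. Of these 6 genes, 5 had a summit in at least 2 lists, all but SNORD7, which had none, against 7 of the 356 other SNORD genes. Of all genes 32.3% had a summit in at least 2 lists, and of genes of at most 300 bp 2.65%. The 5 genes are also long for SNORD genes, at 103 to 148 bp, while SNORD7 has 97 bp. Of all 362 SNORD genes, 61 have at least 100 bp. The summits of the 5 genes had 25 to 61 reads in replicates 2 and 3, and in replicate 1 SNORD9 alone had one. Because the group was put together from genes already known to have summits, this count carries no test.

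Of 13 listed genes of capped snoRNAs or of snoRNAs that act in ribosomal RNA processing, 0, 5 and 3 had a summit in the 3 lists. These are 0%, 38.5% and 23.1%, against 19.1%, 43.1% and 34.8% of all genes. In any list 6 had one (46.2%), against 49.5% of all genes. Outside the imprinted regions, 28.8% of SNORD genes of at least 100 bp had one. The 3 U3 genes among the 6 are near-identical copies, counted in replicate 2 alone. The 6 were SNORD3A, SNORD3B-1 and SNORD3C for U3, SNORD118 for U8, SNORD13 for U13 and SNORD22 for U22. SNORD3B-2 and SNORD3D, further U3 genes, and the 5 U14 genes SNORD14A to SNORD14E, which lie in RPS13 and HSPA8, had no summit in any list.

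The imprinted clusters were nearly empty. None of the 48 SNORD115 genes and none of the 30 SNORD116 genes, the tandem copies in SNHG14 on chromosome 15, had a summit in any list, nor did the 5 other members listed for that region. Of the 41 genes listed for the imprinted region of chromosome 14, SNORD114-3 alone had one, in replicate 2. Over both regions 0%, 0.806% and 0% of 124 genes had a summit in replicates 1, 2 and 3. Of all genes 19.1%, 43.1% and 34.8% did, and of genes of at most 300 bp 2.41%, 5.01% and 5.09%. In sets of this size such low shares give few summits, and the counts carry no test. Without both regions 238 SNORD genes remained, of which 7, 18 and 22 had a summit (2.94%, 7.56% and 9.24%). Copies within a cluster resemble each other and can share reads, and whether the RNAs are present in HEK293T was not tested.

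By host gene, 41 members lie in ribosomal protein genes, and 1, 1 and 0 of them had a summit (2.44%, 2.44% and 0%), among them SNORD32A in RPL13A in replicate 1. Of 129 members in other protein-coding genes, 2, 9 and 15 had one (1.55%, 6.98% and 11.6%), so the order of both host classes in replicate 1 was the reverse of that in the other lists, on 1 and 2 genes. Of 45 members in long noncoding host genes outside the imprinted regions, 3, 4 and 3 had one. None of the 10 listed members in GAS5, a growth-arrest transcript, had a summit in any list, while GAS5 itself held 1, 2 and 0 summits. Of the 8 members listed for SNHG1, SNORD22 alone had one. Of 20 genes with no host by the rule used, 1, 4 and 2 had a summit, among them U3 and U13.

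Within host genes, summits were denser in the snoRNA than its length gives. The 140 protein-coding or long noncoding hosts span 12685074 bp, of which SNORD genes take 0.225%. Of the hosts' 386, 1392 and 582 summits, 6, 15 and 18 lay in a SNORD gene, which is 1.55%, 1.08% and 3.09% (mean 1.91% ± 1.05, SD, n = 3). Among summits with at least 10 reads the shares were 3.57%, 4.91% and 11.6%. Exons were not told from introns here. Of the 6, 14 and 17 hosts with a summit in their snoRNA, 2, 12 and 11 had more than 1 summit, and the one in the snoRNA had the highest −log10 p in 1, 7 and 5 of these. CHD8, with 8, 10 and 8 summits along 70925 bp, had its strongest in SNORD9 or SNORD8 in each list, and RNF149, with 5 and 4 in replicates 2 and 3, had its strongest in SNORD89 in both.

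Members with a summit had a longer median length than those without. The median length was 100.5 bp (range 64 to 237) for the 34 genes, against 80 bp for the 328 without, and 112.5 bp for the 12 found in at least 2 lists. Outside the imprinted regions, a summit in any list was found in 7 of 119 genes of up to 79 bp (5.88%), in 9 of 60 genes of 80 to 99 bp and in 17 of 59 genes of at least 100 bp (28.8%). Longer genes also offer more bases in which a summit can fall.

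Set beside other small RNA families, the share of SNORD genes with a summit lay below that of box H/ACA snoRNA genes (SNORA, guides of pseudouridylation) and Cajal body guide RNA genes (SCARNA), and above that of microRNA genes (MIR), in each of the 3 lists. SNORA genes (182) had one in 8.79%, 28.6% and 49.5%, SCARNA genes (29) in 34.5%, 58.6% and 72.4%, and MIR genes (1913) in 0.470%, 1.25% and 0.523%. The differences of SNORD were -24.5 ± 18.3 percentage points from SNORA, -50.8 ± 17.0 from SCARNA and 3.67 ± 2.06 from MIR (SD, n = 3 replicates). Each had an exact paired permutation p of 0.25 (two-sided, sign flips over the 3 replicates; Benjamini-Hochberg adjusted over 3 comparisons, 0.25), which is the smallest p that 3 replicates can give, so none can pass a threshold of 0.05. With genes of at least 100 bp on both sides, a setting chosen after the data were seen, the differences from SNORA and SCARNA were -13.96 and -39.9 points. At a −log10 q of at least 3 the differences were -7.78 points from SNORA and -13.6 from SCARNA, and with 50% of the gene covered by a peak -4.50 and -14.97. Counting any overlap with a peak turned the difference from MIR to -0.514 points, as replicate 3 went to -7.01.

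**Figure D5:**
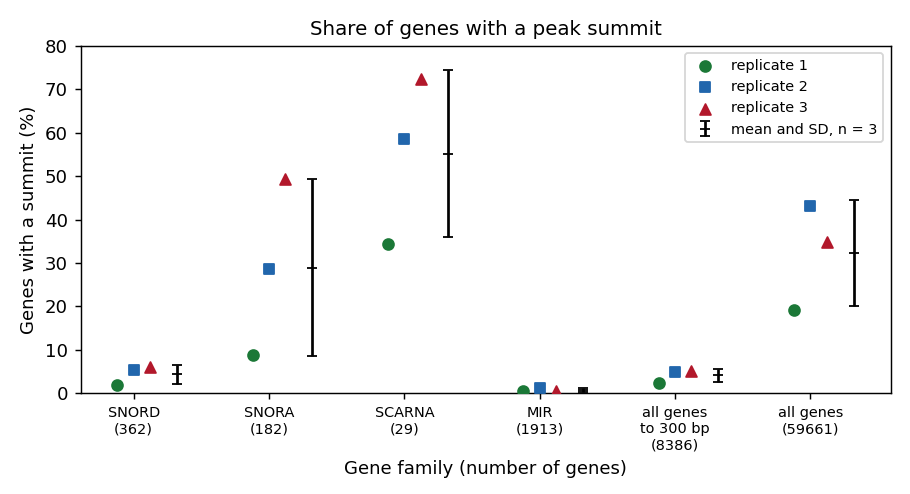
Percentage of genes with a peak summit (y axis) for SNORD genes, other small RNA families, all genes of at most 300 bp and all genes (x axis, number of genes in brackets), with 1 symbol per SNRPD2OE replicate and the mean with SD over the 3 replicates in black. SNORD genes lie at 1.93% to 6.08%, below SNORA and SCARNA genes in each list.

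Genes of the box C/D proteins, listed for comparison, had summits of their own, beside the 19.1%, 43.1% and 34.8% of all genes with a summit in the 3 lists. Of the 4 core protein genes, 2, 4 and 4 had a summit, and of the 8 assembly factor genes 6, 7 and 7. Some of these counts rest on few reads. In replicate 3 the strongest summit of ZNHIT6 had 1 read in a peak of 18801 bp. That of NUFIP1 had 2 reads in a peak of 14859 bp. In replicate 2 the strongest summits of ZNHIT3 and NUFIP1 had 1 read each. NOP58 had 3, 6 and 3 summits, with folds of 3.53, 3.01 and 3.65 at the strongest. FBL, the gene of the methyltransferase fibrillarin, had none in replicate 1 and folds of 2.39 and 7.55 at the strongest in replicates 2 and 3. NOP56 had 1, 5 and 2 summits, 1 of which, in replicate 3, lay in SNORD110, inside it.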

How the data were processed

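The submitters' processing notes name MACS2 2.2.9.1, along with STAR 2.7.10b, cutadapt 4.2 and genome build GRCh38. The authors deposited 1 peak list per overexpression sample, with the fold (a ratio of scaled pileup plus 1 to background plus 1), an unadjusted −log10 p-value, a −log10 q-value and a score that is the whole part of 10 times the −log10 p. Other deposited columns give starts, ends and summit offsets. The sources used here give neither the caller's options nor its background library, duplicate treatment or strand. Peak numbers began at 829, 5159 and 1884, so earlier peaks are not analysed here and a gene called empty is empty in the peaks at hand. The 3 control samples were not analysed here. Some host genes are not reported here. The labels describe a stranded total RNA library kit with ribosomal RNA depletion and fragmentation, but for RNA-seq, and do not say whether the RIP libraries were made in that way.

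A summit was the deposited start plus its offset, and genes were whole spans of the RefSeq GRCh38.p14 table. Hosts were the smallest protein-coding or long noncoding gene that contains the member, or else a transcribed pseudogene. Their strand came from the RefSeq promoter table. Reads were the whole number whose fold and Poisson p matched the deposited −log10 p within 0.002, with a read height of 0.599, 1 and 0.254 in the scaled pileup. All but 3 peaks were solved, and 9.48%, 0.501% and 3.98% had more than 1 solution, of which the closest was taken. On simulated peaks 99.9%, 99.9% and 99.9% of reads were recovered, and all 100 planted summits were assigned. The simulated peaks used the same formulas and read heights as the recovery, so they check the calculation only. Their backgrounds stopped below the highest ones at SNORD summits in replicate 2. A summit planted inside a gene is assigned by the rule itself. Sequencing depth is otherwise unknown, and whether the reads include duplicates was not tested.

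The members and lists were chosen with earlier results of these data known. The rule for named genes took members in all lists, those with at least 10 reads in 2 lists, the top 3 of each list, their hosts, and the U3, U8, U13 and U14 genes; the other members with a summit are named because all of them are reported. Python 3.11.15, pandas 2.3.3, NumPy 2.4.6 and SciPy 1.17.1 were used. Alternatives were a −log10 q of at least 3, at least 10 reads, peaks of at most 1000 bp, overlap of 1 bp or of 50% of the gene, genes widened by 20 bp, lists of equal length, other member sets and leaving out each replicate.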

Additional observations from a re-analysis of the deposited data

How the results depend on the processing

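Of 76 recomputed values 60 stayed within 1 SD between replicates (counts within 1.5 times), 10 shares or counts moved further, 4 family differences kept their sign but moved by more than 1 SD, and 2 reversed. The share of SNORD genes with a summit, 4.42%, became 1.38% at a −log10 q of at least 3, 17.3% with any overlap, 14.9% with 50% of the gene covered by a peak (replicate 3's wide peaks gave 41.7% and 39.5% in that list) and 15.3% for genes of at least 100 bp. Leaving out a replicate gave 3.59% to 5.66%. The count in all lists, 2, was 0 at that q and 0 with 50% coverage, and 3 to 10 without a replicate, the highest without replicate 1. The difference from MIR genes reversed to -0.514 points with any overlap and -1.83 with 50% coverage, was 1.33 at a −log10 q of at least 3, and was 2.73 to 4.77 without a replicate. Differences from SNORA and SCARNA genes stayed negative in every setting run, but shrank from -24.5 to -7.78 and from -50.8 to -13.6 at that q, and to -4.50 and -14.97 with 50% coverage. They were -33.3 to -15.1 and -59.9 to -42.96 points without a replicate, smallest without replicate 3 in both. The share of host summits in the SNORD gene, 1.91%, was 13.4%, 6.68% and 3.08% at that q, with at least 10 reads and with peaks of at most 1000 bp, and 1.32% to 2.32% without a replicate. The place of the summit moved by less than the replicate spread in each setting, at 0.511 to 0.538 without a replicate. No paired analysis was possible because the control group was not analysed here. The exact permutation tests pair gene families within a list, not samples of different groups. The cause of these changes was not tested, and 3 or 4 reads behind a summit limit SNORD121B and SNORD162.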

Other observations

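A further 660 genes of the RefSeq snoRNA class have symbols that begin with none of SNORD, SNORA and SCARNA. Summits lay in 0, 8 and 6 of these genes in the 3 lists (0%, 1.21% and 0.909%). Of all genes 19.1%, 43.1% and 34.8% had one, and of genes of at most 300 bp 2.41%, 5.01% and 5.09%.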
